A study of Mus musculus with 2 samples.

Results

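The genes described here make, sense, move and export cholesterol in mouse keratinocytes. They are 30 genes listed by their place in the pathway, not by their values, and a probe set was taken as theirs where the platform annotation gave it a single gene symbol that matched. Affymetrix arrays read a transcript through probe sets, each made of several short probes whose brightness is combined into 1 signal. Of the 30 genes, 28 had at least 1 such probe set, among 18193 genes so annotated on the array. Acat2, a thiolase at the head of the pathway, and Soat1, which esterifies cholesterol for storage, were not analysed here. The 28 genes had 63 probe sets, of which 55 reached the signal floor on both arrays, 2 on 1 array and 6 on neither. The floor, 67.7, is the median signal over both arrays; lower values were raised to it, and a gene counted as measured when its brightest probe set reached it on either array. All 28 genes were measured on both arrays.

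Epidermal keratinocytes make much of their own cholesterol, which together with ceramides and fatty acids forms the lipid layers of the skin barrier. Acetyl-CoA is built up to mevalonate, then to isoprenoids, then to squalene, which is closed into a sterol ring and trimmed to cholesterol. When sterols in the endoplasmic reticulum are low, the protein SCAP carries the transcription factors SREBP to the Golgi apparatus for cleavage, and the released factors switch on the enzyme genes together; INSIG proteins hold SCAP back when sterols are plentiful. Excess cholesterol is turned into oxysterols, which activate the nuclear receptors LXR and through them the export pumps ABCA1 and ABCG1.

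Expression was compared between 2 primary keratinocyte cultures from the skin of newborn C57BL/6 mice, each hybridised to 1 Affymetrix array. The first came from MED1epi-/- mice, which carry loxP-flanked Med1 alleles (MED1flox/flox) and K5Cre, a Cre recombinase under the keratin 5 promoter, active in basal keratinocytes, so that other cell types in the culture would keep the gene. The second, the control, came from mice titled MED1flox/flox and described elsewhere in the labels as wild-type. MED1 is a subunit of Mediator, which connects transcription factors, nuclear receptors among them, with RNA polymerase II; the study asked how its loss changed gene expression.

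The signal of Med1 itself went against the label. Of 7 Med1 probe sets, the 6 that reached the floor on at least 1 array were brighter on the MED1-null-labelled array, the brightest at 1039 on that array and 463 on the control array, and the other one was below the floor on both. No label gives the deleted part of the gene, and a probe set outside it checks nothing, so each direction below is that of the label. The cultures also differed in sex-linked transcripts: Xist read 55.7 on the MED1-null-labelled array and 5461 on the control array, and the Y-linked gene Eif2s3y 2164 and 4.2. Genotype label, culture and these transcripts cannot be told apart with 1 array each. Of 8 keratinocyte markers, 7 were measured, 5 with a log2 ratio above 0 and 2 below, with a median of 0.23. Krt5 read 32220 and Krt14 36849 on the MED1-null-labelled array, against 26821 and 32905 on the control array. Trp63 and Itga6 read 11736 and 29781, against 7798 and 25412. Dsp and Perp, of cell junctions, read 25855 and 31472, against 28636 and 31548. Of the keratins of differentiating cells, Krt1 lay below the floor on both arrays and Krt10 read 251 and 195. Neither culture had a replicate, so the cultures could not be compared by a test, and the precision of every value is limited by having 1 array each. As a measure of spread, different probe sets of 1 gene were compared, which gave a pooled SD of 0.31 in log2 ratio (1.24-fold) over 4916 genes and 0.21 over the 15 cholesterol genes that allowed it. Probe sets of a gene read the same RNA, so this spread holds no variation between cultures, and a ratio beyond it may still lie within that variation. The 0.31 is used below. By 0.21, further enzymes, Lss and Sc5d among them, would lie beyond the spread.

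Few of the cholesterol genes were far apart between the cultures, as for the array as a whole. None of the 28 was at least 2-fold higher on the MED1-null-labelled array, and 1, the export pump Abcg1, was at least 2-fold lower. Of all 11621 measured genes, 1.63% were at least 2-fold higher (190 genes) and 2.23% at least 2-fold lower (259 genes); with an intensity-dependent curve subtracted, these counts were 140 and 326. At a 1.5-fold threshold the members still numbered 0 higher and 1 lower, against 7.8% and 7.32% of all measured genes. The median log2 ratio, MED1-null over control, was -0.07 over the members and 0.06 over all measured genes. In absolute size the median log2 ratio was 0.17 for the members, 0.24 for all measured genes and 0.20 for the 6697 genes with a mean signal of at least 434.6, the 75th percentile of all signals. Of the members, 22 of 28 lay within the 0.31 spread between probe sets, as did 60.6% of all measured genes and 67.4% of the brighter ones.

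**Figure D1:**
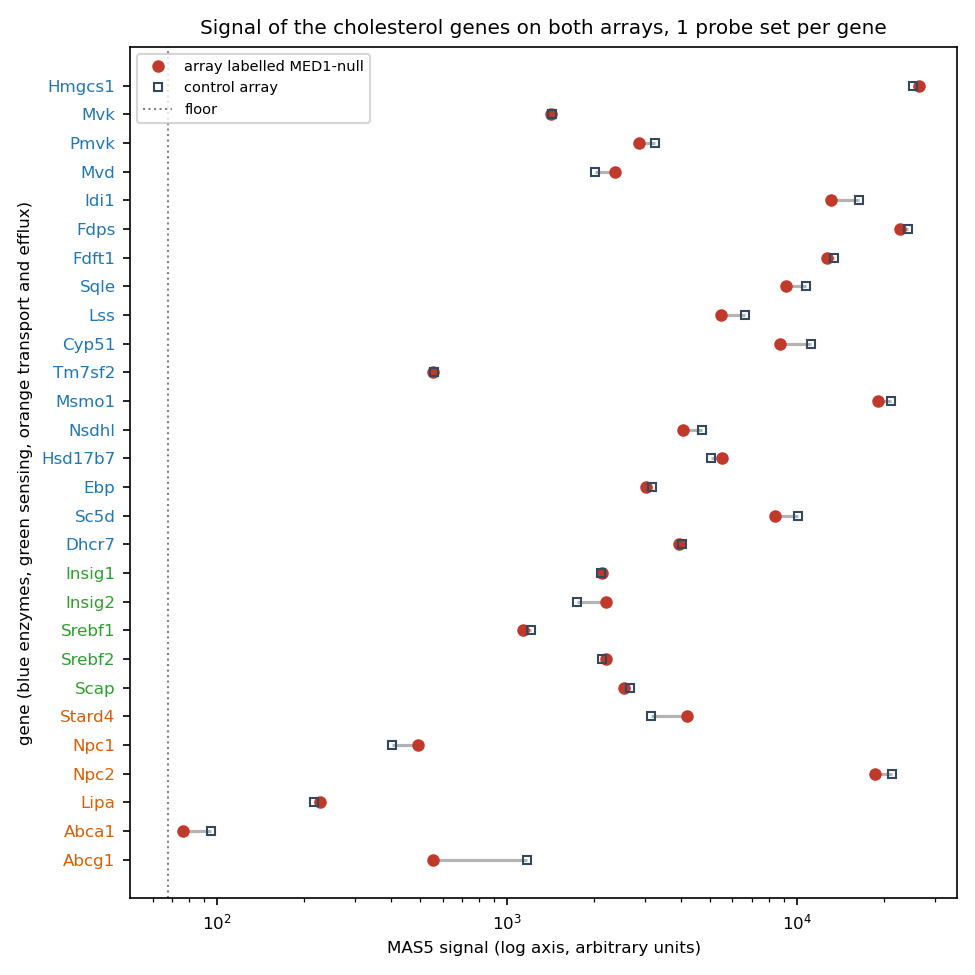
MAS5 signal (log axis, arbitrary units) of the 28 measured cholesterol genes in pathway order, with filled red circles for the MED1-null-labelled array, open squares for the control array and a dotted line at the floor of 67.7. The paired points nearly coincide for most genes; the widest gap is that of Abcg1, at 557 and 1171.

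The mevalonate steps came first, and their genes read almost the same on both arrays. Hmgcs1, which joins acetoacetyl-CoA and acetyl-CoA into HMG-CoA, had a signal of 26474 on the MED1-null-labelled array and 25092 on the control array, a log2 ratio of 0.08. Its other 4 probe sets, down to one with signals of 798 and 780, had log2 ratios from -0.19 to 0.03, so that the gene's probe sets lay on both sides of 0. Mvk, mevalonate kinase, read 1418 and 1426, and its second probe set 961 and 970. Pmvk, the kinase of the next step, read 2850 on the MED1-null-labelled array and 3232 on the control array (log2 ratio -0.18). Mvd, the decarboxylase that yields isopentenyl pyrophosphate, read 2364 and 2016, and 1976 and 1841 with its second probe set. Mvd was thus slightly brighter on the MED1-null-labelled array and Pmvk slightly dimmer, both by less than the spread between probe sets.

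The 3 genes from isoprenoids to squalene were each somewhat dimmer on the MED1-null-labelled array. Idi1, the isomerase that makes dimethylallyl pyrophosphate, read 13123 on the MED1-null-labelled array and 16440 on the control array, a log2 ratio of -0.33. Its second probe set read 5144 and 7726, a log2 ratio of -0.59, so both placed the gene lower by more than 0.31. Among the enzymes, Idi1 and Cyp51 were the 2 whose main probe set lay beyond that spread. Fdps, which makes farnesyl pyrophosphate, read 22682 and 24228 (log2 ratio -0.10), with a further probe set below the floor on both arrays. Fdft1, squalene synthase, read 12732 and 13400, and 10658 and 11010 with a second probe set. The remaining Fdft1 probe sets were at or near background: one read 76.6 on the MED1-null-labelled array and 4.1 on the control array, and the other was below the floor on both. Fdps and Fdft1 therefore differed by less than the spread between probe sets.

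Of the 10 enzymes that close and trim the sterol ring, 9 had a log2 ratio below 0, with a median of -0.18 and a range from -0.36 to 0.12. Sqle, which oxidises squalene, read 9180 on the MED1-null-labelled array and 10725 on the control array. Lss, which closes the ring, read 5464 and 6652 with its brightest probe set. Cyp51, a cytochrome P450 that removes a methyl group from lanosterol, read 8748 and 11205, a log2 ratio of -0.36 and the lowest among the enzymes. A dim Cyp51 probe set went the same way, at 348 and 430, while another read 5304 and 4981. Tm7sf2, a sterol reductase, read 558 and 562, and Msmo1, the methylsterol oxidase, 19001 and 21075. Nsdhl, which removes carboxyl groups from the ring, read 4066 and 4725 (log2 ratio -0.22). Hsd17b7, a sterol ketone reductase, was the exception, at 5501 on the MED1-null-labelled array and 5069 on the control array, though another of its probe sets read 2755 and 2993. Ebp, the sterol isomerase, read 3029 and 3172, Sc5d, the desaturase, 8421 and 10093, and Dhcr7, a late reductase of the pathway, 3938 and 4010. Of these 10 differences only that of Cyp51 exceeded the 0.31 spread.

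Across the 17 enzymes, 14 had a log2 ratio below 0 and 3 above, with a median of -0.10. Of all measured genes 42.9% lay below 0, and of the brighter genes 44.5%. None of the 17 reached 1.5-fold by its main probe set. The median of the enzymes ran from -0.16 to -0.05 over the ways of scaling and choosing probe sets that were tried, and it stayed below 0 under each of them.

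**Figure D2:**
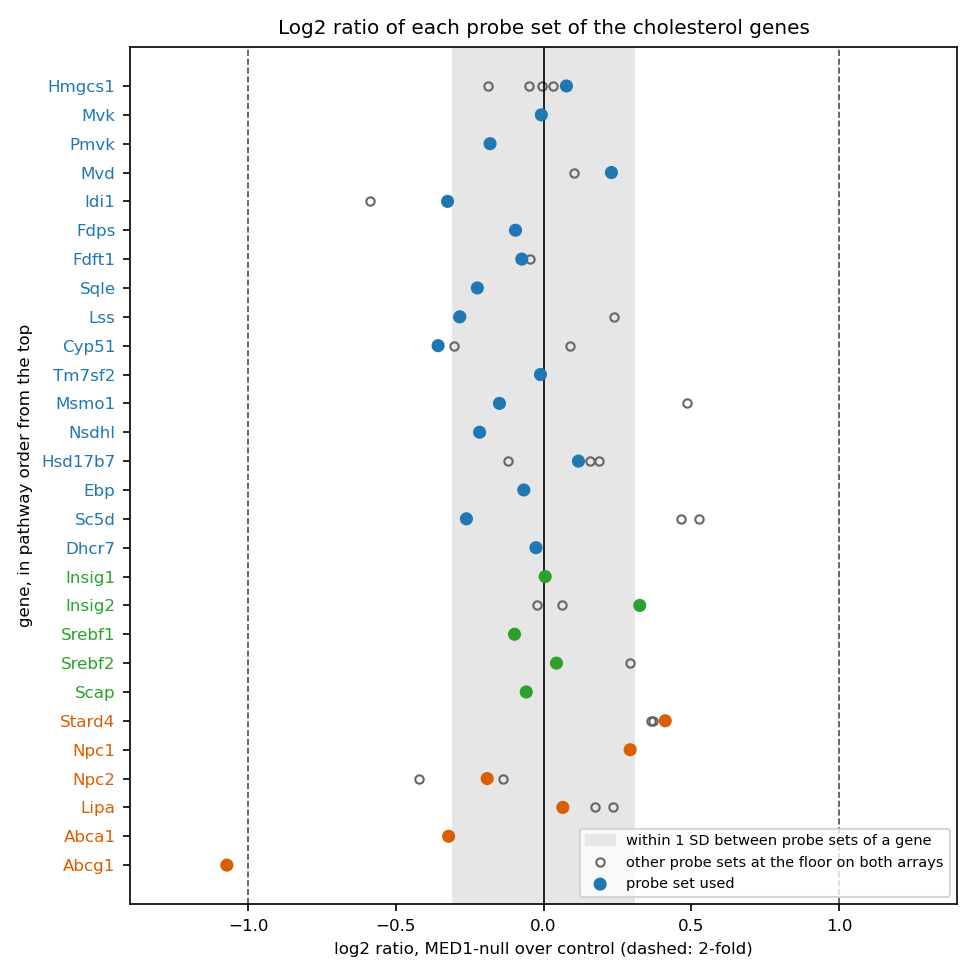
Log2 ratio, MED1-null over control, of every probe set of the cholesterol genes that reached the floor on both arrays, in pathway order from the top, with filled points for the probe set used (blue enzymes, green sensing genes, orange transport, storage and efflux genes), open circles for the others, a grey band for 1 SD between probe sets of a gene (0.31) and dashed lines at 2-fold. Only Abcg1, at -1.07, lies outside the dashed lines, and the probe sets of Lss, Msmo1 and Sc5d spread on both sides of 0.

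Several of these small offsets depended on the probe set. Among the 15 members with more than 1 probe set above the floor, every probe set lay on the same side of 0 for 8 and not for 7. Sc5d was the widest: beside the probe set at 8421 and 10093, its other probe sets read 834 on the MED1-null-labelled array and 579 on the control array, and 225 and 163, with log2 ratios of 0.53 and 0.47. For Msmo1, a dim probe set read 444 and 317 (log2 ratio 0.49) against -0.15 for the bright one. For Lss, the bright probe set carries a suffix marking sequence shared between transcripts, and the next one, at 3333 and 2822, had a log2 ratio of 0.24. Over the 55 member probe sets that reached the floor on both arrays, 31 lay below 0 and 24 above. For the enzymes alone these counts were 23 below and 12 above, beside 14 and 3 when each gene was counted once.

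The promoters of the enzyme genes were read for the elements through which SREBP is known to act, because the enzymes share this regulation. RefSeq promoter windows (GRCm38.p6) were given for 24 of the 30 genes, and the 250 bases before each annotated start were searched on both strands. The CCAAT box, the site of NF-Y, a factor that works with SREBP, was present for 14 of 15 enzyme genes (93.3%) and for 21 of 24 genes in all, against 37.5% of 27025 genes. In 13 of the 15 enzyme genes (86.7%) at least 1 box lay within 100 bases of the start, against 21.6% of all genes. The core of the sterol regulatory element, searched as TCACNCCAC, was present for Hmgcs1 and for no other member, against 1.22% of all genes. Neither the whole sterol regulatory element nor the LXR DR4 element, searched by exact letters, was found for a member, but such matches are rare, at 22 and 4 of the 27025 genes. Abcg1 was among the 6 genes without a window and was not searched. The matches are letters in a window and show no binding, and no match says only that these letters were not there.

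Printed here are the upstream 250 bases of 4 genes, 5′ to 3′ on the strand of the gene, with CCAAT boxes (ATTGG on the reverse strand) and the sterol element core in capitals. They are Hmgcs1 (chr13:119690101-119690350, plus strand), the gene with the sterol element, and Mvk (chr5:114444019-114444268, plus strand), which held 5 boxes and hardly differed between the arrays. The third is Idi1 (chr13:8885356-8885605, plus strand), the enzyme with every probe set lower beyond the spread. The last is Abca1 (chr4:53159896-53160145, minus strand), an efflux gene with none of these matches. Sites that vary from the exact letters were not searched, in Abca1 or any other gene.
Hmgcs1: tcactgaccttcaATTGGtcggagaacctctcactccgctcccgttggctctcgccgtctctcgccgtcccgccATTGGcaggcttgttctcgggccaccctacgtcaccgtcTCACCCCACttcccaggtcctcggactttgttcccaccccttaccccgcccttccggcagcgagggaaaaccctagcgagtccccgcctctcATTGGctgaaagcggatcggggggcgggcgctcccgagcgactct
Mvk: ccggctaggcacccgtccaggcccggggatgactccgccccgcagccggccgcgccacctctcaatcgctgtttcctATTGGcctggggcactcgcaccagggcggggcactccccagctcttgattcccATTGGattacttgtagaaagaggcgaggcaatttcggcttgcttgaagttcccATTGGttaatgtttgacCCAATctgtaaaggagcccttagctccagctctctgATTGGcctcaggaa
Idi1: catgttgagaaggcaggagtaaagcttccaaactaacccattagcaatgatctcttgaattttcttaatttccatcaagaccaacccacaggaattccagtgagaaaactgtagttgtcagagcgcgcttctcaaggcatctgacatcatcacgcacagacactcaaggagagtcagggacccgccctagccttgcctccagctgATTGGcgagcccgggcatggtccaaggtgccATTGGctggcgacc
Abca1: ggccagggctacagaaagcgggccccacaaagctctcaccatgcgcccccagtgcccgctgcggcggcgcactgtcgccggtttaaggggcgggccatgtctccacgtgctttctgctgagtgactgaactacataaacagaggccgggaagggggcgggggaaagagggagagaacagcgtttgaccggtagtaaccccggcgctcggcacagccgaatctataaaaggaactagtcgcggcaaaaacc

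**Figure D3:**
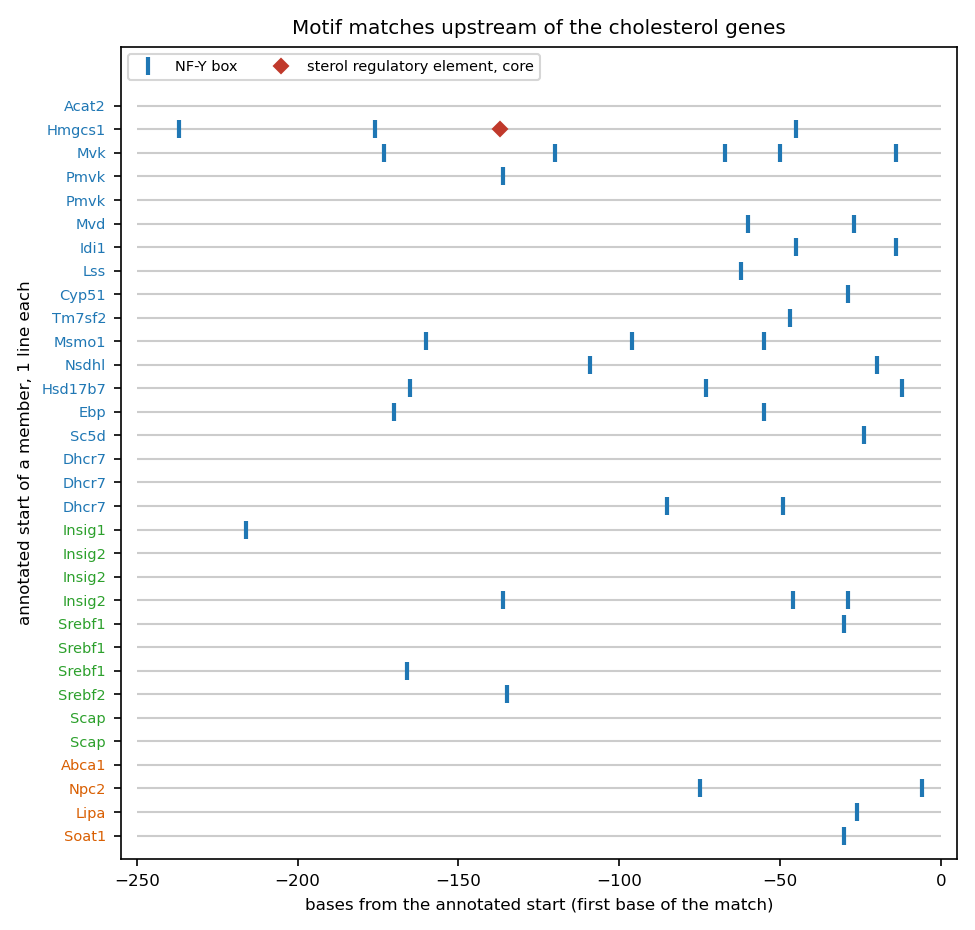
Positions of CCAAT boxes (blue bars) and of the sterol regulatory element core (red diamond) in the 250 bases before each annotated start of a member; the horizontal axis is the distance in bases from the start, and a gene with several annotated starts has a line for each. At least 1 box lies within 100 bases of the start for 13 of the 15 enzyme genes, some with further boxes upstream, and the single sterol element core belongs to Hmgcs1, 137 bases upstream.

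The sensing machinery was close to level between the cultures, with a median log2 ratio of 0.005 over 5 genes that turned to -0.06 when the arrays were rescaled to a median ratio of 1 and to -0.01 after the intensity-dependent curve was subtracted. Srebf2, which encodes the SREBP that drives the cholesterol enzymes, read 2196 on the MED1-null-labelled array and 2130 on the control array, and 1494 and 1220 with its second probe set. Srebf1, whose product favours fatty acid genes, read 1133 and 1213, and Scap, the escort of both, 2545 and 2651. None of these 3 genes differed by more than the spread between probe sets. Insig1, an SREBP target that closes the feedback loop, read 2124 and 2116, a log2 ratio of 0.005. Insig2, its paralog, read 2195 and 1751 (log2 ratio 0.33), but its other probe sets read 1957 and 1876, and 1117 and 1133. Of the 3 Insig2 probe sets, 1 was thus higher by more than 0.31 and the others differed by less than that spread.

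Among the genes that move cholesterol within the cell, Stard4 had the highest ratio by its main probe set, and its probe sets gave similar ratios. Stard4, an SREBP target that carries cholesterol between membranes, read 4174, 3227 and 1814 with its 3 probe sets on the MED1-null-labelled array, against 3137, 2509 and 1405 on the control array. The log2 ratios were 0.41, 0.36 and 0.37, a 1.33-fold difference by the brightest, so that all 3 placed it higher by more than 0.31. It was the highest ratio among the 28 members. Npc1, the membrane protein that takes cholesterol out of lysosomes, read 493 and 403 (log2 ratio 0.29) with 1 probe set. Npc2, its soluble partner, went the other way, at 18670 and 21312, and 17783 and 19547 with a second bright probe set. A dim Npc2 probe set read 418 and 560, and another 103 on the MED1-null-labelled array and 57.6, below the floor, on the control array. Lipa, the lysosomal acid lipase that frees cholesterol from lipoprotein esters, read 226 and 216, and 98.2 and 87.1, and 85.3 and 72.5 with dimmer probe sets. For Npc1, Npc2 and Lipa the main probe set differed by less than the spread between probe sets.

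Of the efflux pumps, Abcg1 had the lowest ratio of the 28 genes, and Abca1 lay close to Idi1 and Cyp51. Abcg1, which exports cholesterol to high-density lipoprotein, read 557 on the MED1-null-labelled array and 1171 on the control array, 2.10-fold lower (log2 ratio -1.07). Its second probe set was below the floor on both arrays, at 32.7 and 49.0, so the difference rests on 1 probe set, just past the 2-fold threshold. Abca1, which loads cholesterol onto apolipoprotein A-I, read 76.5 and 95.6 (log2 ratio -0.32), barely above the floor, and its other probe sets were below it on both arrays. Abcg1 was 2-fold lower under all 8 alternative settings, but the other floors and probe set rules could not change its log2 ratio of -1.07. The other scalings, which could, gave log2 ratios from -1.14 to -1.11. Markers of other cell types moved as well. All 8 melanocyte markers were measured, 6 of them below 0, with summed signals of 19507 on the MED1-null-labelled array and 25056 on the control array. The largest part of these sums came from Tyrp1, at 6715 and 9346. The markers did not move alike: Kit read 136.8 and 409.5, Tyr 746.8 and 626.6, and Sox10 261.3 and 259.9. Of 8 fibroblast markers, 5 were measured, 4 of them below 0, and these 5 summed to 348 and 589. Among them, Col3a1, Dcn and Twist2 reached the floor on the control array only, so their ratio could only fall below 0. The 2 that reached it on both arrays went opposite ways. Col1a2 read 115 on the MED1-null-labelled array and 80.3 on the control array, and Pdgfra 126 and 157. Col1a1 was below the floor on both arrays. Of 8 leukocyte markers, 5 were measured, all above 0, and these 5 summed to 3423 and 2895. Most of these sums came from Cd68, at 2799 and 2446. Adgre1 reached the floor on the MED1-null-labelled array only, so its ratio could only lie above 0. Ptprc, Cd3e and Cd207 were below the floor on both. The part of these cells in the Abcg1 difference was not tested. In bulk cultures, fewer cells of a type and less RNA per cell cannot be told apart.

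**Figure D4:**
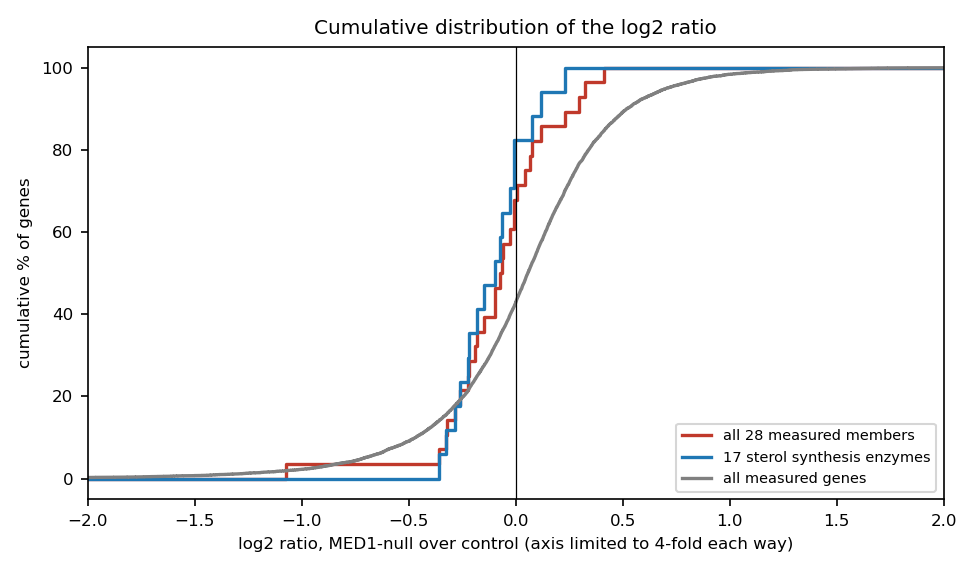
Cumulative percentage of genes by log2 ratio, MED1-null over control, for the 28 members (red), the 17 enzymes (blue) and all 11621 measured genes (grey), with the axis limited to 4-fold in each direction. The member curves rise steeply near 0, left of the grey curve at the middle, with medians of -0.07 and -0.10 against 0.06, and the single low step is Abcg1.

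The share of members within 2-fold, 27 of 28 (96.4%), was near the 96.1% of all measured genes. The same 27 lay within 1.5-fold, compared with 84.9% of all measured genes and 89.5% of the brighter ones. Of the members, 26 belonged to the brighter genes, where ratios vary less; the exceptions were Lipa and Abca1. These shares describe the 2 arrays and were not tested.

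Other genes of the pathway were examined as lists. Of 11 measured genes of the other sterol steps and the isoprenoid branch, none reached 2-fold and 9 had a log2 ratio above 0, with a median of 0.11. Icmt, which methylates prenylated proteins, read 842 on the MED1-null-labelled array and 502 on the control array, Rabggtb, a subunit of the enzyme that prenylates Rab proteins, 1970 and 1654, and Pdss2, which builds the tail of coenzyme Q, 232 and 199. Of 10 genes of SREBP processing and sterol-regulated degradation, none reached 2-fold and 5 lay on each side of 0, with a median of 0.02 that was -0.04 after rescaling and -0.01 after the curve was subtracted. The paralogs Erlin2 and Erlin1, of the endoplasmic reticulum membrane, went opposite ways, at 2521 and 1841 for Erlin2 and 930 and 1232 for Erlin1, and Sec24d, a coat protein of vesicles leaving that compartment, read 1607 and 2065.

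Lists of lipoprotein uptake, sterol handling and LXR targets each held 1 gene that was at least 2-fold lower, beside 2.23% of all measured genes. With the floor applied, 0 genes of these lists counted as at least 2-fold higher, beside 1.63% of all, although a gene below the floor on the control array, such as Ch25h, has only a lower bound. Of 8 measured uptake genes, 7 were below 0, with a median of -0.14. The lower one was Vldlr, a lipoprotein receptor, at 844 on the MED1-null-labelled array and 1698 on the control array, whose 4 probe sets ran from -1.08 to -0.48 in log2 ratio. Lrp1, a related receptor, read 174 and 241, and Scarb1, the receptor for high-density lipoprotein, 870 and 1026. The 3 Scarb1 probe sets that reached the floor on both arrays ran from -0.76 to -0.24 in log2 ratio. Of 13 measured genes of sterol transport, storage and sulfation, Gramd1c, a protein of contact sites between membranes, read 733 and 4057 (5.53-fold lower), with 1 probe set. Sult2b1, which makes the cholesterol sulfate of the epidermis, read 3303 and 5384, and Osbpl2, an oxysterol-binding protein relative, 1487 and 2291; the list's median was -0.09. Of 9 measured LXR targets and oxysterol enzymes, a list that also holds Abca1, Abcg1 and Srebf1, the lower one was Abcg1 itself. The LXR receptor genes Nr1h2 and Nr1h3, listed with them, were not among the 9 measured. Apoe, an LXR target and acceptor of exported cholesterol, read 399 and 612 (log2 ratio -0.62). Ch25h, which makes an oxysterol, read 129 on the MED1-null-labelled array and 49.9, below the floor, on the control array, at least 1.90-fold higher. Its list's median was -0.11.

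**Figure D5:**
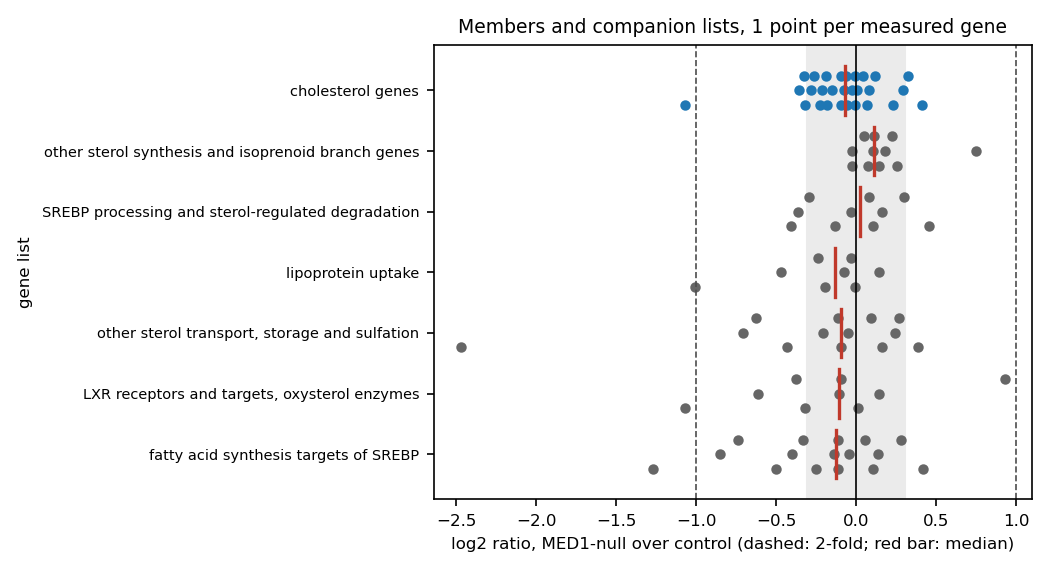
Log2 ratio, MED1-null over control, of each measured gene in the cholesterol group (blue) and in 6 lists of related genes (grey), with a red bar at each median, a grey band for 1 SD between probe sets of a gene and dashed lines at 2-fold; genes can belong to several lists. Medians lie between -0.14 and 0.11, and the far points on the left are Gramd1c, Acsl3, Abcg1 and Vldlr.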

How the data were processed

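The authors deposited linear signal intensities, 1 for each probe set, which were made with MAS5, per the submitters' processing notes, in GeneChip Operating Software, per the series' design text. The software version is not given in the sources used here. The trimmed mean of each array (2% cut off at either end) was 500, so the arrays had been brought to a common scale. Because MAS5 corrects for mismatch probes, dim values are noisy.

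Each gene was represented by its brightest probe set on average, signals under 67.7 were raised to that floor, and log2 of the control array was subtracted from log2 of the MED1-null-labelled array. Counts used 2-fold and 1.5-fold thresholds. With 1 array per group nothing was tested. Counting was tested on simulated data. The members, lists and rules were chosen with earlier results of these data known. All members were named, and from each list of related genes the 3 farthest from 0. Symbols were taken from the platform annotation in GEO, promoters from RefSeq (GRCm38.p6). Alternatives were other floors, scalings and probe set rules. Python 3.11.15, pandas 2.3.3 and statsmodels 0.14.6 were used. Affymetrix control probe sets (64 of 45101) were left out of the floor.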

Additional observations from a re-analysis of the deposited data

How the results depend on the processing

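Under 8 alternatives and a 1.5-fold threshold, 0 members were higher and 1 was lower past the threshold. The median log2 ratio ranged from -0.13 to -0.04 over all members and from -0.16 to -0.05 over the enzymes. It ranged from -0.06 to 0.02 over the sensing genes and from -0.13 to 0.005 over the transport, storage and efflux genes, and these last 2 turned sign. Of 220 single member values, 216 moved by less than 0.31, but many of them could not move. A floor below both signals of a gene leaves its ratio unchanged, and a probe set rule cannot change the ratio of a gene with 1 probe set. The 4 others all came from probe set rules. These included Lss without probe sets of shared sequence (0.24) and Sc5d with the median of its probe sets (0.47). The rest were Msmo1, at 0.17 with the median and 0.49 without shared ones. In all, 9 members changed sign under some alternative, and Abcg1 did not. Over all genes the counts at least 2-fold higher and lower were 1120 and 934 with the floor at the 25th percentile, 49 and 106 at the 75th and 484 and 456 with none. No paired analysis was possible because each group holds 1 array. Signals near the floor, such as those of Abca1 and Lipa, limit how small or large a ratio can be seen.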

Other observations

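Among genes of fatty acid synthesis that SREBP also drives, 81.2% lay within 1.5-fold, near the 84.9% of all measured genes. Of 16 measured, 1 was at least 2-fold lower and none 2-fold higher on the MED1-null-labelled array, 11 had a log2 ratio below 0, and the median was -0.13 (-0.22 with the median of each gene's probe sets). Acsl3, which activates fatty acids, read 1594 on the MED1-null-labelled array and 3842 on the control array, 2.41-fold lower, but its 3 probe sets ran from -1.27 to 0.24 in log2 ratio. The desaturase Fads2 read 542 and 978, with all 3 probe sets below 0. Its neighbour in the pathway, Fads1, read 235 and 391, with probe sets from -0.74 to 0.04.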
